A study of Homo sapiens with 3 samples.

Results

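The AP-1 transcription factors examined here are 8 genes, JUN, JUNB, JUND, FOS, FOSB, FOSL1, FOSL2 and ATF3, represented by the 30 probe sets that the annotation pairs with each symbol alone, out of 44988 probe sets with a single symbol and 18132 genes. All 8 members had at least 1 probe set above the filter on dim genes (a mean of log2 5.27), which left 12232 genes in all. The cells were KYSE150, an established line from a human oesophageal squamous carcinoma. They had been transfected with pcDNA3.1 LOXL2 delta72, with pcDNA3.1 LOXL2 WT or with the vector alone (control), and RNA was taken 48 h later. The labels do not describe what delta72 lacks, and give no share of cells transfected. Each of the 3 conditions had 1 Affymetrix array, so no difference below has a replicate check, no p-value is given, and "higher" and "lower" describe these arrays. The errors given are standard deviations (SD) of a difference over a gene's probe sets above the filter, which hold no culture or hybridisation error.

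AP-1 is a family of dimers. JUN proteins pair with themselves, with FOS proteins or with ATF proteins through a leucine zipper, and the adjoining basic region binds DNA at AP-1 sites or at cyclic AMP response elements. Several members are immediate early genes, induced within minutes of growth factor or stress signals through the MAP kinases, and in squamous epithelium AP-1 acts on proliferation, migration and differentiation genes. LOXL2 is a lysyl oxidase that crosslinks collagen and elastin.

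The transfected gene stood far above control on both LOXL2 arrays on 3 of its 4 probe sets. The brightest one read log2 14.06 with delta72 and 14.05 with WT, against 7.46 in control. The remaining LOXL2 probe set went the other way, with 8.66 with delta72 and 8.32 with WT, against 8.81 in control. Of the squamous markers KRT5, KRT14, CDH1, DSG3 and SFN, all 5 lay above the filter, whereas KRT6A and TP63 were not analysed here; KRT14 was at -0.66 with delta72 and -0.67 with WT. Of the markers of other cell types, 1 of 5 fibroblast, 1 of 5 leukocyte and 3 of 4 endothelial genes lay above it, and the highest value among all of them was log2 6.08, for PDGFRB. The fibroblast collagen gene COL1A2 reached at most 4.48, and the leukocyte gene PTPRC at most 3.08.

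With delta72 and with WT alike, JUN and ATF3 read higher than in control, and JUNB and FOSL1 read lower. JUN stood 1.82-fold above control with delta72 and 1.52-fold with WT, and ATF3 1.61-fold and 1.38-fold. JUNB stood 1.35-fold below control with delta72 and 1.59-fold with WT, and FOSL1 1.18-fold and 1.28-fold. FOS, FOSB, FOSL2 and JUND differed from control by at most 1.20-fold on their brightest probe sets, and so did FOSL1 with delta72. On these probe sets FOSL2 read higher than control on both LOXL2 arrays, FOS and FOSB read lower on both, and JUND changed sign. The FOSL2 probe sets disagreed in sign with WT but not with delta72. The RNA came from whole cultures, so more cells with a transcript and more of it per cell cannot be told apart.

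Counted at 1.5-fold on the brightest probe set, 2 of 8 members (JUN and ATF3) were higher with delta72 than in control, where 1.28% of all genes were, and 0 of 8 were lower, where 0.499% of all genes were. With WT, 1 of 8 members (JUN) was higher, where 1.85% of all genes were, and 1 of 8 (JUNB) was lower, where 0.867% of all genes were. Between delta72 and WT, 0 of 8 reached 1.5-fold in either direction, where 0.18% of all genes were higher and 0.0409% lower. No member reached 2-fold. By medians over probe sets, 1 of 8 was higher with delta72, since ATF3 read 0.54. With WT, 0 of 8 were higher after a shift to a common median, quantile normalization or a lowess correction. The members were chosen with earlier results of these data known, so the shares of all genes are given for scale only. The members' median difference was 0.05 with delta72 and -0.09 with WT, against 0 and -0.01 over all genes, and it hides members on both sides, from -0.43 to 0.86 with delta72 and from -0.67 to 0.60 with WT. The comparisons with control share 1 control array, so a reading particular to that array would enter both.

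**Figure D1:**
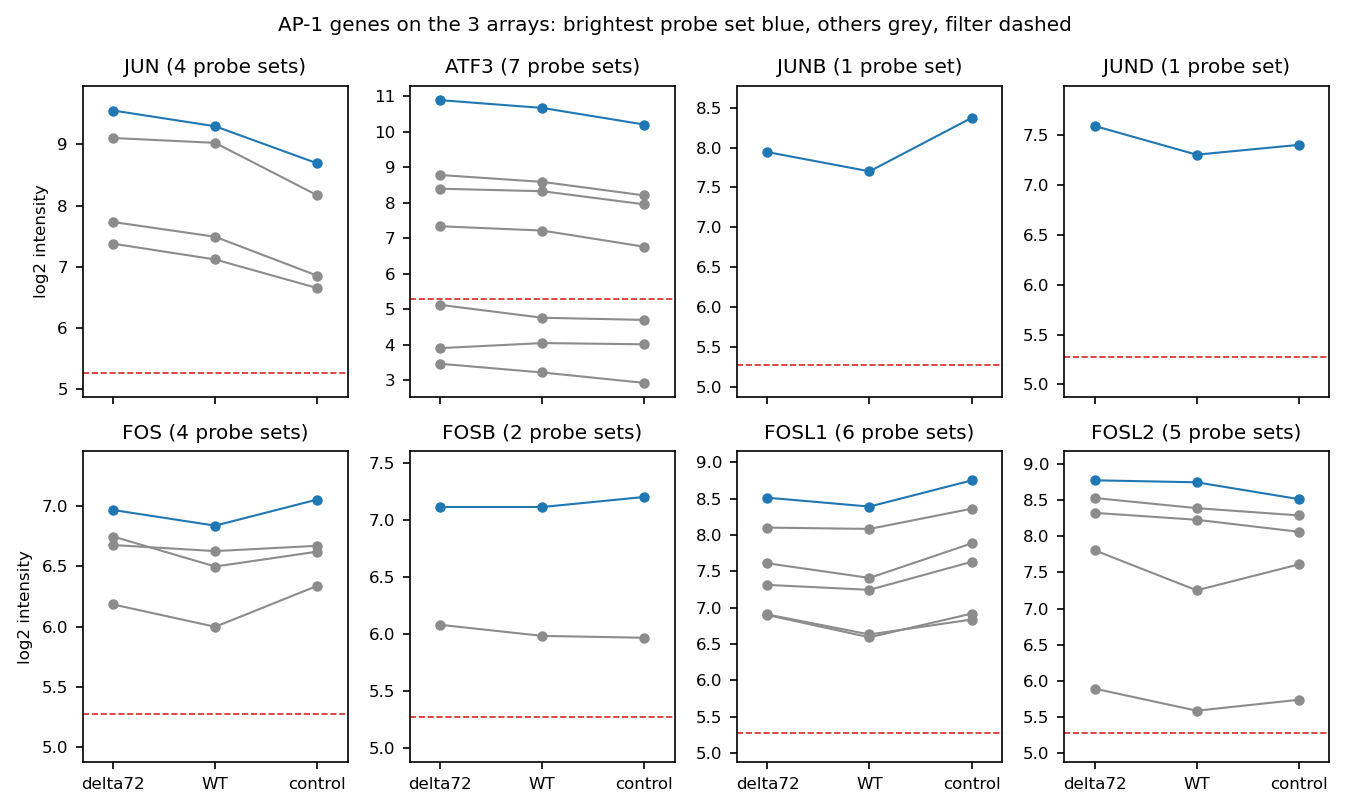
Log2 intensity of every probe set of the 8 AP-1 genes on the delta72, WT and control arrays, 1 array each, with the brightest probe set of each gene in blue, the others in grey and the filter of 5.27 as a dashed line. All 4 JUN lines and 6 of 7 ATF3 lines are lowest on the control array, and 5 of 6 FOSL1 lines and the JUNB line are highest there. The vertical axes differ between genes.

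JUN encodes c-Jun, the member that binds DNA well as a dimer with itself and the best known substrate of the kinase JNK. Its brightest probe set read log2 9.55 with delta72 and 9.29 with WT, against 8.69 in control, a difference of 0.86 (SD 0.09 over 4 probe sets) for delta72 and of 0.60 (SD 0.16) for WT. The other JUN probe sets read 9.10, 7.73 and 7.38 with delta72 and 9.02, 7.49 and 7.12 with WT, against 8.17, 6.86 and 6.65 in control. Delta72 was highest and control lowest on each of these 4 probe sets. All 4 were at least 1.5-fold above control with delta72, and 3 of 4 with WT, where the remaining one was 1.38-fold higher. Of the 30 member probe sets, 14 carry the suffix _s_at or _x_at, given where probes may also bind other transcripts. Of the JUN probe sets only the brightest carries neither. The brightest probe set ranked at the 99.8th percentile of the differences of all 12232 genes with delta72 and at the 98.4th with WT. Its difference with WT lay close to the 1.5-fold limit (log2 0.58), and it was 0.56 after a shift of the arrays to a common median or after quantile normalization.

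ATF3 encodes a stress-induced factor that pairs with JUN proteins and, as a dimer with itself, mostly represses transcription. It is a target of ATF4 in the integrated stress response. Its brightest probe set read log2 10.90 with delta72 and 10.68 with WT, against 10.21 in control, a difference of 0.69 (SD 0.10 over 4 probe sets) for delta72 and of 0.47 (SD 0.05) for WT. The other 3 probe sets above the filter differed by 0.44 to 0.58 with delta72 and by 0.37 to 0.46 with WT. So the 4 brighter ATF3 probe sets had the same order of arrays as JUN. The 3 dimmer ATF3 probe sets, at log2 5.12 or less on all arrays, differed by -0.11 to 0.54 with delta72 and by 0.03 to 0.29 with WT. The median over all 7 probe sets was 0.54 with delta72, which is under the 1.5-fold limit, and 0.37 with WT.

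The promoters of these members are shown because both JUN and ATF3 hold the letters TGACATCA in a window before a start site. JUN and ATF3 are the 2 members at least 1.5-fold above control on an array. TGACATCA is a form of AP-1 site first described in the JUN promoter, where dimers of JUN and ATF2 bind. The promoters to show were chosen after the values were seen, and a link between these letters and the values was not tested. The sequences are the 250 bases before a RefSeq start site (GRCh38.p14), 5′ to 3′ on the strand of the gene, with the motifs searched for in capitals. JUN lies on chromosome 1, minus strand (chr1:58784048-58784297), ATF3 on chromosome 1, plus strand (chr1:212565157-212565406), and JUNB, shown as a member that was lower, on chromosome 19, plus strand (chr19:12791236-12791485).
JUN: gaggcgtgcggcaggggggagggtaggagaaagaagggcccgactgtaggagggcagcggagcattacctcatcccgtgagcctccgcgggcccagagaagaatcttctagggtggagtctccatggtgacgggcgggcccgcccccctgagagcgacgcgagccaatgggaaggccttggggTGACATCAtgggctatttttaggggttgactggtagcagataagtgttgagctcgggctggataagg
ATF3: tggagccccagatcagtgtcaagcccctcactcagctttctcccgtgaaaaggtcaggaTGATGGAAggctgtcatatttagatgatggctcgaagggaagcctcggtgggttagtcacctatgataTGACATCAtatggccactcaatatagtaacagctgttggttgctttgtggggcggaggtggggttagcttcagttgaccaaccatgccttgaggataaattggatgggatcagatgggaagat
JUNB: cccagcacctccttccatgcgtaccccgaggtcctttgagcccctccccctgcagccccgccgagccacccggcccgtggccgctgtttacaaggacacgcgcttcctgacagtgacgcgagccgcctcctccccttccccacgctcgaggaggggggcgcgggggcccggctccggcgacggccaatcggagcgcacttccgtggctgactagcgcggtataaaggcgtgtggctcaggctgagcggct

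TGACATCA stood at positions -67 to -60 of JUN and -123 to -116 of ATF3, counted from the last base before the start site as -1. Both strands were searched. It was found in 2 of the 8 member promoter windows, and in 2.37% of all 35116 windows of the same length. Because the site was first described in the JUN promoter, the JUN match was known beforehand, and only the ATF3 match was open. The count of 2 of 8 therefore tests nothing about the members. The search also took TGANTCA, the AP-1 site, which none of the 8 windows held against 6.57% of all windows, and TGACGTCA, the cyclic AMP response element, which the JUND window held (1 of 8) against 1.65% of all. TTNCATCA, a site for dimers of C/EBP and ATF factors, was found on the opposite strand at -191 to -184 of the same ATF3 window, against 3.14% of all windows. The CArG box of serum response factor was in no member window, against 1.16% of all. These motifs share letters (CATCA in TGACATCA and TTNCATCA), but no sites overlapped in the member windows. The windows cover 7 members, FOSL1 not among them, and ATF3 has a second window, for a start site further along the gene (chr1:212614768-212615017), with no match. The printed ATF3 window ends just before the first base of the gene (chr1:212565407). Promoters at any other ATF3 start site were not searched. Which ATF3 start site these cells used was not tested. A match is a description of letters, no match says only that these letters are not in this window, and the arrays do not measure binding.

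JUNB encodes a JUN protein that activates transcription less than c-Jun at many sites and can counter it. Its only probe set read log2 7.94 with delta72 and 7.70 with WT, against 8.37 in control, a difference of -0.43 for delta72 and of -0.67 for WT. Control was highest and WT lowest, and the WT difference lay past the 1.5-fold limit. The WT difference ranked at the 0.474th percentile of all genes, and the delta72 difference at the 1.70th. The probe set carries the suffix _x_at, which Affymetrix gives where probes may also bind other transcripts, so JUNB has neither a second probe set nor a specific one.

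JUN and JUNB thus differed in opposite directions on both arrays. The JUN difference from control exceeded that of JUNB by log2 1.29 with delta72 and by 1.27 with WT. JUND, the JUN family gene that is expressed steadily in many cells, read log2 7.59 with delta72 and 7.30 with WT, against 7.40 in control, on 1 probe set, also with the suffix _x_at. Its differences were 0.19 with delta72 and -0.10 with WT, so its sign differed between the arrays.

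FOSL1 encodes FRA1, the FOS family protein that is abundant in many invasive squamous and breast carcinoma lines and is raised by ERK signalling. Its brightest probe set read log2 8.51 with delta72 and 8.39 with WT, against 8.75 in control, a difference of -0.24 (SD 0.16 over 6 probe sets) for delta72 and of -0.36 (SD 0.09) for WT. All 6 probe sets were lower with WT than in control, by -0.20 to -0.47. With delta72, 5 of 6 were lower, and the differences ran from -0.32 to 0.07. No FOSL1 probe set reached 1.5-fold on either array, and WT had the lowest value on all 6.

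FOSL2 encodes FRA2, a close relative of FRA1. Its brightest probe set read log2 8.77 with delta72 and 8.75 with WT, against 8.51 in control. All 5 probe sets were higher with delta72 than in control, by 0.15 to 0.26 (SD 0.05). With WT they disagreed, since 3 were higher by 0.10 to 0.23 and 2 lower by -0.15 and -0.36 (SD 0.25 over all 5). One of the 2, which read log2 7.81 with delta72 and 7.25 with WT against 7.61 in control, gave the largest delta72 minus WT difference of any member probe set, 0.55.

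FOS, the classic immediate early partner of JUN, read log2 6.97 with delta72 and 6.84 with WT, against 7.05 in control. Its 4 probe sets differed by -0.15 to 0.13 with delta72, where 2 were higher and 2 lower, and by -0.34 to -0.04 with WT, where all 4 were lower. FOSB, an immediate early gene with a short and a full-length protein, read log2 7.11 with delta72 and 7.11 with WT, against 7.20 in control. Its second probe set read 6.08 with delta72 and 5.98 with WT, against 5.97 in control, so the 2 FOSB probe sets gave opposite signs in both comparisons with control.

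**Figure D2:**
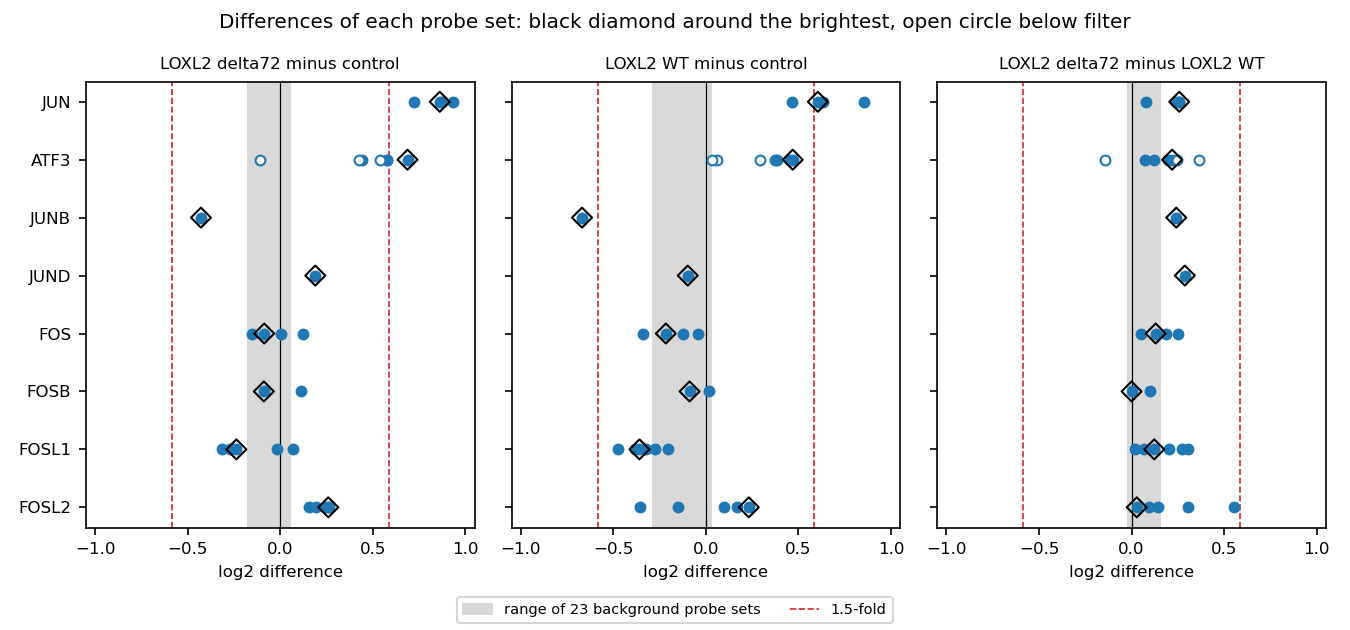
Log2 difference of every member probe set in the 3 comparisons, with a black diamond around the brightest of each gene, open circles for probe sets below the filter, dashed lines at 1.5-fold and a grey band for the range of the 23 background probe sets. JUN lies right of the band in both comparisons with control and JUNB left of it, while FOS and FOSB lie mostly within it.

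The comparison of delta72 with WT uses no control array, and in it the members leaned one way. On the brightest probe set 7 of 8 members were higher with delta72, with a median difference of 0.17 against 0.0013 over all genes, and FOSB differed by -0.00014. Of the 30 member probe sets, 28 were higher with delta72, against 50.5% of all 44988 probe sets. JUND differed by 0.29 (1.22-fold), JUN by 0.26 (SD 0.09), JUNB by 0.24, ATF3 by 0.22 (SD 0.07), FOS by 0.13 (SD 0.08), FOSL1 by 0.12 (SD 0.11) and FOSL2 by 0.03 (SD 0.21). Probe sets of 1 gene share their transcript and the arrays, and are not replicates.

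The background probe sets of the array moved in the same order and are therefore given beside these values. These 23 probe sets match no intended transcript and are graded by the number of G and C bases, from 3 to 25. The 9 with 17 or more read 0.065 to 0.15 higher with delta72 than with WT, and 9 of 9 were lower than control on both arrays, by -0.09 to -0.17 with delta72 and by -0.18 to -0.29 with WT. Those with fewer G and C bases differed from control by -0.08 to 0.05 with delta72 and by -0.12 to 0.03 with WT. The order of these 9 probe sets, control highest and WT lowest, is that of JUNB, of 5 of 6 FOSL1 probe sets and of 2 of 4 FOS probe sets. The differences of FOS, FOSB, FOSL1 and FOSL2 between delta72 and WT, on their brightest probe sets, lay within the range of the background probe sets (-0.02 to 0.15), and those of JUN, JUNB, JUND and ATF3 above it. In the comparisons with control, JUN and ATF3 differed in the opposite direction to the 9 probe sets, and JUNB and the brightest FOSL1 probe set exceeded the largest background difference of 0.173 with delta72 and of 0.285 with WT. Of the other FOSL1 probe sets, those at -0.02 and 0.07 with delta72 did not exceed it, nor did those at -0.28 and -0.20 with WT. The 9 probe sets read log2 4.87 to 10.67 with delta72, 4.80 to 10.56 with WT and 4.99 to 10.84 in control. The base composition of the members' probes was not used here, so its part in these differences was not tested, and it is not known which dimmer member probe sets lie above background.

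**Figure D3:**
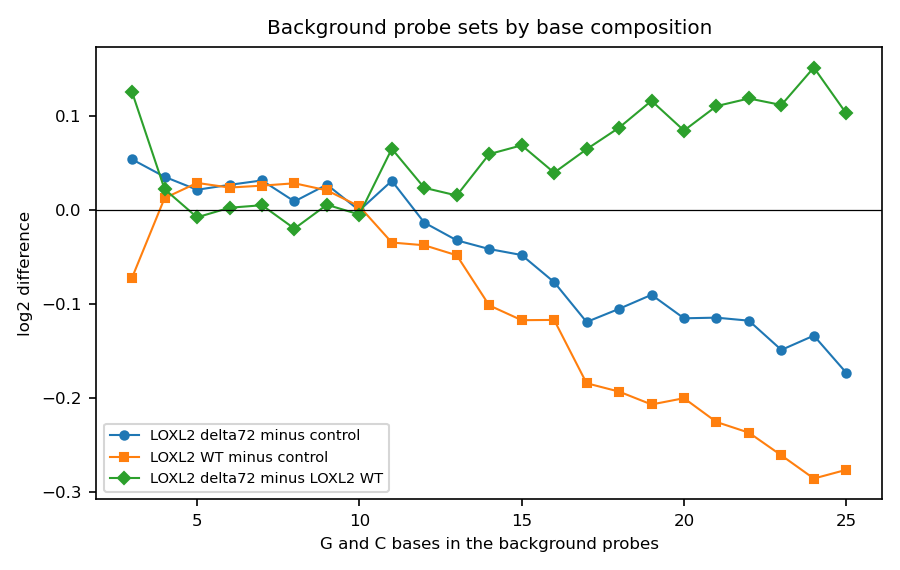
Log2 difference of the 23 background probe sets (vertical axis) against the number of G and C bases in their probes (horizontal axis), 1 line a comparison. From 17 bases on, both LOXL2 arrays lie below control, WT further than delta72, and delta72 lies above WT.

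The partners and regulators of AP-1 were read from 7 further lists, whose counts at 1.5-fold stand against 1.28% of all genes higher and 0.499% lower with delta72, and 1.85% higher and 0.867% lower with WT. Of 17 measured bZIP partners, 11 were higher and 6 lower than control with delta72 and 10 higher and 7 lower with WT, and 2 of 17 reached 1.5-fold on each array. DDIT3, the stress factor CHOP, was at 1.65 with delta72 (3.14-fold, SD 0.05 over 2 probe sets) and at 1.03 with WT. Both DDIT3 probe sets carry the suffix _s_at. Without the _s_ and _x_ probe sets DDIT3 had no value, and 1 of 14 partners was counted on each array. CREB5, whose protein can pair with JUN, was at 0.85 with delta72 (SD 0.41 over 2 probe sets) and at 0.93 with WT (SD 0.48). The median over all 5 CREB5 probe sets was 0.56 and 0.58, just under the limit of 0.585, so that 1 of 17 partners was counted by medians on each array, and 1 of 13 with the 60th percentile filter. CREB3, a membrane-bound factor, was at 0.54 and 0.47, and ATF6, the membrane-bound sensor of unfolded proteins, at 0.20 and 0.39. JDP2, which represses AP-1 sites, was at -0.19 and -0.21, and ATF2, the partner of JUN at TGACATCA, at -0.17 and -0.19 (SD 0.13 and 0.18 over 3 probe sets). The median over all 5 ATF2 probe sets was 0.03 and 0.02, so its sign depended on the probe set. JDP2 and ATF2 were named after their values were seen.

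On the brightest probe sets, transcripts of the kinases above AP-1 stayed within 1.5-fold of control in 15 of 15 measured genes on both arrays. With delta72, 1 kinase was past 1.5-fold lower after quantile normalization, by medians over probe sets and without the _s_ and _x_ probe sets. With WT, 1 was so after quantile normalization and without the _s_ and _x_ probe sets. MAP3K5, the stress kinase ASK1, was at -0.50 with delta72 (SD 0.22 over 2 probe sets) and at -0.32 with WT. The second probe set of MAP3K5, which lacks the suffix _s_at, read log2 6.32 with delta72 and 6.52 with WT, against 7.13 in control, and differed by more than 1.5-fold on both arrays (-0.81 and -0.61). MAPK3, which encodes ERK1, was at -0.24 and -0.36, MAP3K11 at -0.16 and -0.32, and MAP2K6, which activates p38, at -0.13 and -0.26. The JNK genes MAPK8 and MAPK9, named after their values were seen, were at 0.09 and 0.10 with delta72 and at -0.09 and 0.19 with WT. Their medians over probe sets were 0.09 and -0.0048 with delta72 and 0.23 and 0.10 with WT, so the sign of MAPK9 with delta72 and of MAPK8 with WT depended on the probe set. Arrays of transcripts do not show kinase activity.

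Among 11 measured factors of the FOS and JUN promoters, MEF2A, a MADS box factor that binds the JUN promoter, was at 0.70 with delta72 (1.63-fold, SD 0.27 over 4 probe sets) and at 0.86 with WT (1.82-fold, SD 0.34). The median over all MEF2A probe sets was 0.29 and 0.52, under the limit. SP1, a general promoter factor, was at -0.45 and -0.51 (SD 0.01 each over 2 probe sets). CREM, of the CREB family, was at 0.18 and 0.25, and MRTFA, a cofactor of serum response factor, at 0.25 and 0.10. The list medians were 0.01 and -0.0023.

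Among 14 measured turnover and feedback genes, DUSP6, the phosphatase that switches off ERK and is itself raised by ERK signalling, was 1.52-fold lower with delta72 (-0.61, SD 0.07 over 4 probe sets) and 1.64-fold lower with WT (-0.72, SD 0.09). It was the only member of that list past 1.5-fold. ZFP36L2 and ZFP36L1, which promote decay of AU-rich mRNAs such as those of immediate early genes, were at -0.45 and -0.15 with delta72 and at -0.26 and -0.28 with WT. DUSP1, a phosphatase for JNK and p38, was at 0.17 and -0.06.

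Among 15 measured classical AP-1 targets, 0 lay past 1.5-fold on either array on the brightest probe set. By the same reading 10 were lower than control with delta72 and 9 with WT, and the list medians were -0.05 and -0.14. CXCL8, the interleukin 8 gene, was at 0.55 with delta72 (SD 0.05 over 3 probe sets) and at 0.12 with WT, and HBEGF, a ligand of EGFR, at 0.51 and 0.28 on 1 probe set above the filter, with a median of 0.22 and 0.11 over both. PLAU, the urokinase gene, was at -0.08 with delta72 and at -0.50 with WT (SD 0.07 over 3 probe sets). Its second probe set read log2 8.82 with delta72 and 8.35 with WT, against 8.99 in control. That one was past 1.5-fold with WT (-0.63) but not with delta72 (-0.17). The chromatin gene HMGA1 was at -0.18 and -0.44. The collagenase and stromelysin genes MMP1, MMP3, MMP9, MMP10 and MMP13 did not pass the filter, and the highest value of any of them was log2 5.27.

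Among 17 other immediate early genes, 4 were at least 1.5-fold higher and 1 lower with delta72, and 3 higher and 1 lower with WT. GEM, a small GTP-binding protein gene, was at 1.30 and 1.38 on its only probe set, and KLF10, a TGF-beta-induced zinc finger gene, at 1.10 and 1.15 (SD 0.04 and 0.01 over 2 probe sets). NR4A3, an orphan nuclear receptor gene, was at 0.88 and 1.27 on 1 of 3 probe sets, which read log2 5.97 with delta72 and 6.36 with WT, against 5.09 in control, so it passed the filter through the LOXL2 arrays and had to be higher there. The median over its 3 probe sets was 0.31 and 0.44, under the limit. SGK1, a kinase gene induced by serum and glucocorticoids, was at 0.60 and 0.37 (SD 0.07 each over 4 probe sets), and its other probe sets, at 0.43 to 0.54 with delta72, lay under the limit. The number higher with delta72 was 3 after each of the 3 rescalings of the arrays, 2 by medians over probe sets and 1 without the _s_ and _x_ probe sets, and with WT it was 3, 2 and 1. PHLDA1 was the lower one, at -1.21 and -1.24 (SD 0.26 and 0.29 over 4 probe sets). EGR1, a zinc finger factor and classic early gene named after its values were seen, was at -0.20 and -0.05.

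The list of integrated stress genes around ATF3 also takes in endoplasmic reticulum genes such as HERPUD1 and HSPA5. Its medians were 0.28 with delta72 and 0.15 with WT over 13 measured genes, with 9 higher and 4 lower than control on each array. DDIT3, HERPUD1 and HSPA5 had the largest differences of the list on both arrays, and a median without the endoplasmic reticulum genes was not taken. HERPUD1, of endoplasmic reticulum degradation, was at 1.45 with delta72 and 0.88 with WT, and HSPA5, the main chaperone there, at 1.19 and 0.93, with a median of 1.92 and 1.15 over its 6 probe sets. PPP1R15A, the phosphatase subunit GADD34, was at 0.64 and 0.29, and DDIT4 at -0.17 and -0.66. The other genes lower than control on both arrays were ASNS (-0.26 and -0.43), VLDLR (-0.05 and -0.53) and CHAC1 (-0.03 and -0.16). ATF4 itself was at 0.15 and 0.15. ASNS, VLDLR, CHAC1 and ATF4 were named after their values were seen. All 13 were higher with delta72 than with WT, with a median of 0.26, against 50.4% of all genes and a median of 0.0013, and ATF3 itself differed by 0.22 in that comparison. The background probe sets leaned the same way, 9 of 9 with 17 or more G and C bases and 11 of 14 with fewer, and their part in this was not tested.

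**Figure D4:**
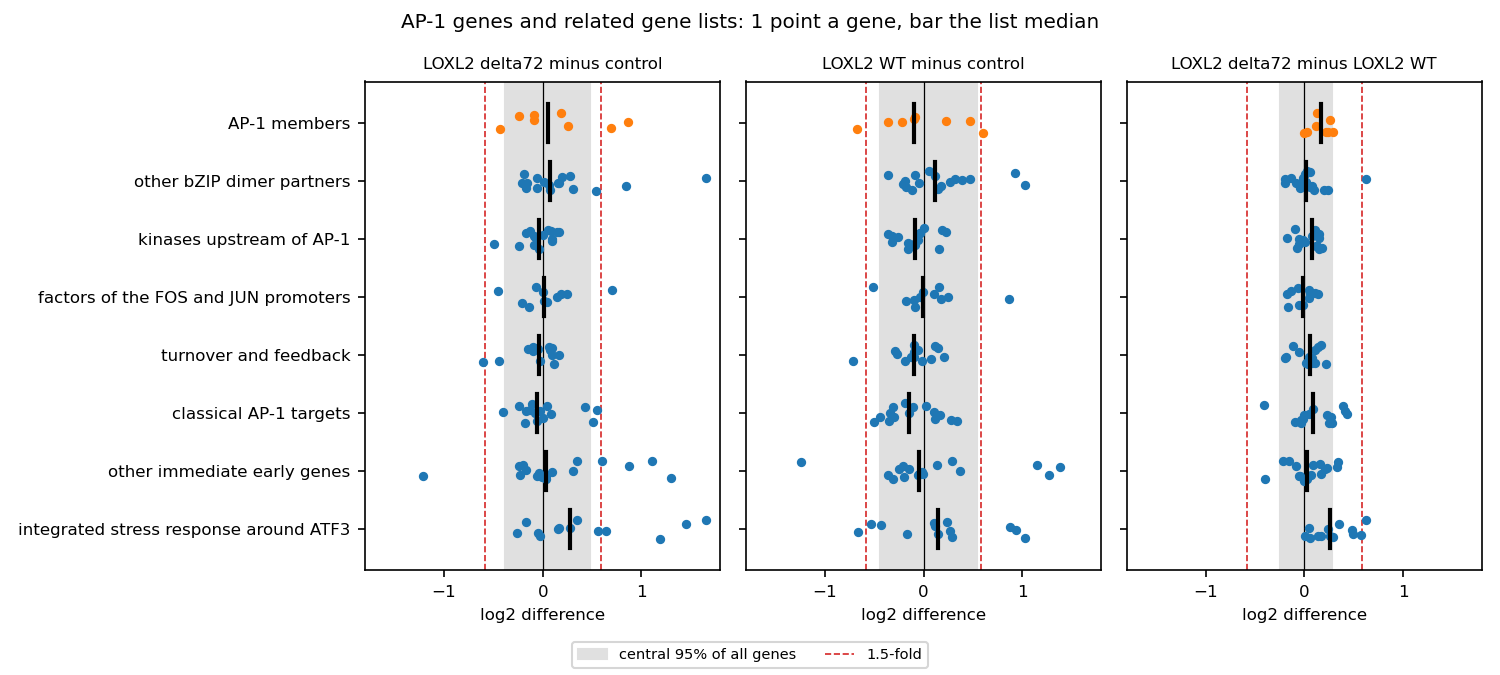
Log2 difference of each measured gene of the AP-1 list (orange) and of 7 related lists (blue) in the 3 comparisons, with the list median as a black bar, the central 95% of all 12232 genes in grey and dashed lines at 1.5-fold. JUN, ATF3 and JUNB are the AP-1 points outside the grey area in the comparisons with control, except ATF3 with WT.

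The genes whose pattern over the 3 arrays was most like that of JUN, by the distance between their differences from control, were HYOU1 (0.80 with delta72 and 0.59 with WT, distance 0.064), ZNF283 (0.83 and 0.66, distance 0.065) and SNHG32 (0.84 and 0.69, distance 0.090). Over its 9 probe sets HYOU1 had a median of 0.17 and 0.12, so its likeness to JUN rests on the brightest one. With 3 arrays, a pattern has only 2 free values.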

How the data were processed

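The authors deposited 1 table of log2 intensities for 49395 probe sets on 3 arrays, 1 per condition. The scale was taken as log2 from its range of 2.07 to 14.56. Per the labels' protocols, labelling with biotin started from 100 ng of RNA. Partek and Affymetrix Expression Console are listed, without versions or an algorithm, per the submitters' processing notes. Array medians were 5.94 (delta72), 5.93 (WT) and 5.95 (control), and a change common to most genes cannot be seen on this scale.

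Probe sets were named through the platform annotation: 44988 had 1 symbol, 1832 several and 2473 were not listed, apart from 102 controls; 44967 matched the RefSeq gene table by Entrez identifier, and 0 symbols changed. Each gene was read from its probe set with the highest mean, with a filter at the 40th percentile of these means (log2 5.27). Differences were delta72 minus control, WT minus control and delta72 minus WT, counted at 1.5-fold and 2-fold. There is no test with 1 array per condition. The members and lists were chosen with earlier results of these data known. From each list up to 4 genes with the largest difference and every gene past 1.5-fold are named, and others are said to be so. Counting was tested on simulated data. Other scalings, filters and choices of probe set were tried, and the closing section gives their effect. Python 3.11.15, pandas 2.3.3 and statsmodels 0.14.6 were used. Promoters came from RefSeq (GRCh38.p14). The number of arrays limits the precision.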

Additional observations from a re-analysis of the deposited data

How the results depend on the processing

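Of the 7 alternatives run, 6 were planned, and the other one, which keeps only probe sets whose suffix is neither _s_at nor _x_at, was chosen after seeing the data. Of 162 member values recomputed, 155 moved by less than the probe error and 0 of those past 1.5-fold changed sign. The 155 include values that could not move, so their number is no measure of stability. A change of filter left each member's brightest probe set, and so its value, as it was. The median over probe sets could not move JUNB or JUND, with 1 probe set each. Dropping the _s_ and _x_ probe sets kept the brightest one of JUN, ATF3 and FOSL2. JUN with delta72 (0.83 to 0.87) and JUNB with WT (-0.71 to -0.67) kept their direction and their side of 1.5-fold in every alternative that gave a value. Only the rescalings of the arrays could move JUNB, and only these and the median over probe sets could move JUN. The members at least 1.5-fold higher with WT numbered 0 after a shift to a common median, 0 after quantile normalization and 0 after a lowess correction, where JUN read 0.56, 0.56 and 0.58. With delta72 the number was 1 with the median over probe sets, where ATF3 read 0.54. Without the _s_ and _x_ probe sets JUNB and JUND had no value, so the members at least 1.5-fold lower with WT numbered 0 of 6 and the members' median with WT was 0.12. FOSB changed sign with the median over probe sets (0.01 with delta72) and without the _s_ and _x_ probe sets (0.11 with delta72, 0.02 with WT), and FOS with the latter (0.0063 with delta72).

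Over all genes, 157 were at least 1.5-fold higher and 61 lower with delta72, 226 and 106 with WT, and 22 and 5 between delta72 and WT. After the shift to a common median these were 123 and 77 with delta72 and 169 and 139 with WT. With the median over probe sets they were 96 and 35, 143 and 64, and 13 and 2. Between delta72 and WT they were 40 and 16 with no filter and 11 and 0 with the 60th percentile filter. The causes were not tested. Of 294 list counts, 20 moved. No paired analysis was possible because each condition had 1 array.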
